A study of Mus musculus with 6 samples.

Results

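Cholesterol and fatty acids are built from acetyl-CoA, and 31 genes of these pathways were followed in mouse bone marrow cells that carried BCR-ABL, BCR-ABL with Blk, or neither. They were chosen by name as enzymes, regulators and transporters of sterol and fatty acid synthesis. A gene was counted as measured where a probe set of the array was annotated with its symbol and no other, and of several such probe sets the brightest on average over 6 arrays was used. By this rule 30 of the 31 genes were measured, of 19938 named genes in all, and Acat2 was not analysed here. They comprise 6 genes of the mevalonate steps, 11 of the sterol steps, 4 regulators, 6 of fatty acid synthesis and 3 of sterol transport.

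The 6 arrays hold 2 biological replicates in each of 3 groups of sorted cells. Donor marrow came from C57BL/6 mice treated with 5-fluorouracil, was transduced by retrovirus and went into C57BL/6 recipients, whose marrow was taken 14 days later. The BCR-ABL-Blk virus carried BCR-ABL, Blk and GFP, the BCR-ABL virus carried BCR-ABL and GFP, and the vector virus carried GFP alone. The fusion kinase BCR-ABL drives chronic myeloid leukemia, while Blk belongs to the Src kinases and works mainly in B cells. All groups were of wild-type genotype and 8 weeks of age by their labels, and all were sorted as GFP+, lineage-negative, c-Kit+ and Sca-1+. Normal stem cells and early progenitors fall into this gate; by their labels the 2 oncogene groups are leukemic stem cells (LSCs) and the vector group hematopoietic stem cells (HSCs). The labels do not give the promoter that drives the transgenes or how many mice made up a replicate, so p-values measure the spread between these samples, which may be partly technical.

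Cells make cholesterol through the mevalonate pathway, which ends in isoprenoid units, and then through squalene and lanosterol. When membrane sterol is low, the escort protein SCAP carries the SREBP transcription factors to the Golgi, where they are cut and released to switch on nearly every gene of the pathway; INSIG proteins hold SCAP back when sterol is plentiful. The product of Srebf1 leans toward fatty acid genes and that of Srebf2 toward cholesterol genes. Excess sterol activates the LXR receptors, which switch on the exporters Abca1 and Abcg1. In blood stem and progenitor cells these exporters are known to restrain growth, and dividing cells need newly made lipid for membranes.

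The arrays measured neither sterols nor protein, so each value below is a log2 level of RNA signal, quantile normalized over the arrays, and a difference of 1 on this scale is 2-fold. Levels of different genes come from different probes and are not set against each other. In sorted bulk cells, fewer cells of a type and less RNA per cell cannot be told apart.

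Promoter windows show a sequence feature that many of the genes share and that their choice by name did not use. RefSeq gives windows of 250 bases before to 50 bases after a start (GRCm38.p6) for 23 of the 30 measured genes, 29 windows in all. The box CCAAT, which the factor NF-Y binds beside SREBP in many sterol genes, was found on either strand in 20 of these 29 windows (69%), against 37.4% of all 32851 windows. By gene, 19 of 23 (82.6%) had it, against 41.1% of 27025 genes. These are all RefSeq genes with a window, not matched to the members in level or kind. As the box is known from many sterol genes, its share here is a description. The sterol regulatory element TCACNCCAC, with N for any base, was found in 1 of the 29 windows, that of Hmgcs1, against 1.24% of all windows. The LXR element in its consensus form, a direct repeat with a spacer, was found in 0 of the 29, against 0.0152% of all windows. The 3 motifs do not overlap in the windows printed here. Only exact letters were matched, so an element that departs from them is missed. A match is a description of the letters, not a bound site, and a window without a match may still hold a site. Below are the window of Hmgcs1, which holds both motifs, those of Idi1 and Msmo1, which hold CCAAT and rank within the first 3 by p in 2 of the 3 comparisons (Idi1 was last, 30 of 30, for BCR-ABL-Blk over BCR-ABL, and Msmo1 was 25 of 30 for BCR-ABL-Blk over vector), and that of Abca1, which leads the ranking in 2 comparisons and holds no match. Each runs 5′ to 3′ along the gene, in lower case with the motif matches in capitals (ATTGG is CCAAT on the other strand).
Hmgcs1: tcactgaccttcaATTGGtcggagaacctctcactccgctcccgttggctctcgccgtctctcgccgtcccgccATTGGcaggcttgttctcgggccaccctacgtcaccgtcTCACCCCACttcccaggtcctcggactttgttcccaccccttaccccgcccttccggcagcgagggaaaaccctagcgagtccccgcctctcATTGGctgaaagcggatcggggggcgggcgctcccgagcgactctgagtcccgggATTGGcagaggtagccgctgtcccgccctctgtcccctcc
Idi1: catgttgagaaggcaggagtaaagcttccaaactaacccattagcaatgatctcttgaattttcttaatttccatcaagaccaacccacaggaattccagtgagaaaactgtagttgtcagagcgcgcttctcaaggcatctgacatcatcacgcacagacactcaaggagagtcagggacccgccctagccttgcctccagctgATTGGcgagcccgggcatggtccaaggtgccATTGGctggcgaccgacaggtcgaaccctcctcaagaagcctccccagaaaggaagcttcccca
Msmo1: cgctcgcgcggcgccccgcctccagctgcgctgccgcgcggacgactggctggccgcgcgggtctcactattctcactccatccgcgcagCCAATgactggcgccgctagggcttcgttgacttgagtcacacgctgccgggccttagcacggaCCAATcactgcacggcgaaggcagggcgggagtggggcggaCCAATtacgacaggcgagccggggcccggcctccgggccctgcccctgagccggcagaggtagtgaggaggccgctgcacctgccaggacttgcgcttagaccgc
Abca1: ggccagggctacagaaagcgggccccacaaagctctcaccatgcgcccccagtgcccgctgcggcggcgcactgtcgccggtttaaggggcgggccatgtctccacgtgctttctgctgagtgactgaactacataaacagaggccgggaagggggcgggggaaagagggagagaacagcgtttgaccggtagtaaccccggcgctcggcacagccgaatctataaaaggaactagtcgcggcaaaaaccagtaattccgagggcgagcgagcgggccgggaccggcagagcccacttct
These windows lie at chr13:119690101-119690400 (plus strand), chr13:8885356-8885655 (plus strand), chr8:64733529-64733828 (minus strand) and chr4:53159846-53160145 (minus strand). In that of Hmgcs1, the sterol element begins 137 bases before the start, and CCAAT boxes on the other strand lie at 237, 176 and 45 bases before it and at base 11 after it. Idi1 has boxes at 45 and 14 bases before the start, and Msmo1 at 160, 96 and 55.

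As a whole the pathway genes had a median difference of at most 0.09 in size in each comparison. No member passed the test in any of the 3 comparisons (limma, Benjamini-Hochberg adjusted over 19938 genes). Between BCR-ABL-Blk and BCR-ABL cells 0 of 30 members were called, where 0.0% of all genes were. Between BCR-ABL and vector cells it was 0 of 30, against 0.145% of all genes, and between BCR-ABL-Blk and vector cells 0 of 30, against 0.14%. So few genes were called in all that 0 of 30 says little about the members. At an unadjusted p under 0.05 there were 2 members in each comparison (6.67%), against 3.96% of all genes for BCR-ABL-Blk over BCR-ABL, 8.64% for BCR-ABL over vector and 9.42% for BCR-ABL-Blk over vector. These were Abca1 and Scd2 for the addition of Blk, Abca1 and Msmo1 for the oncogene alone against vector, and Acaca and Stard4 for the oncogene with Blk against vector.

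The size of the differences is bounded by their intervals. The median member differed by −0.02 for BCR-ABL-Blk over BCR-ABL (all genes −0.01), by 0.09 for BCR-ABL over vector (all genes 0.02) and by 0.09 for BCR-ABL-Blk over vector (all genes 0.00). The 95% interval of the difference, unadjusted for the number of genes, lay within 2-fold either way for 30, 29 and 29 of the 30 members in these comparisons, and within 1.5-fold for 22, 20 and 21. Idi1 was the member whose interval reached past 2-fold in both comparisons with vector. Changes smaller than those bounds could be missed with 2 arrays a group, where the median standard error over the members was 0.150 and over all genes 0.129.

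**Figure D1:**
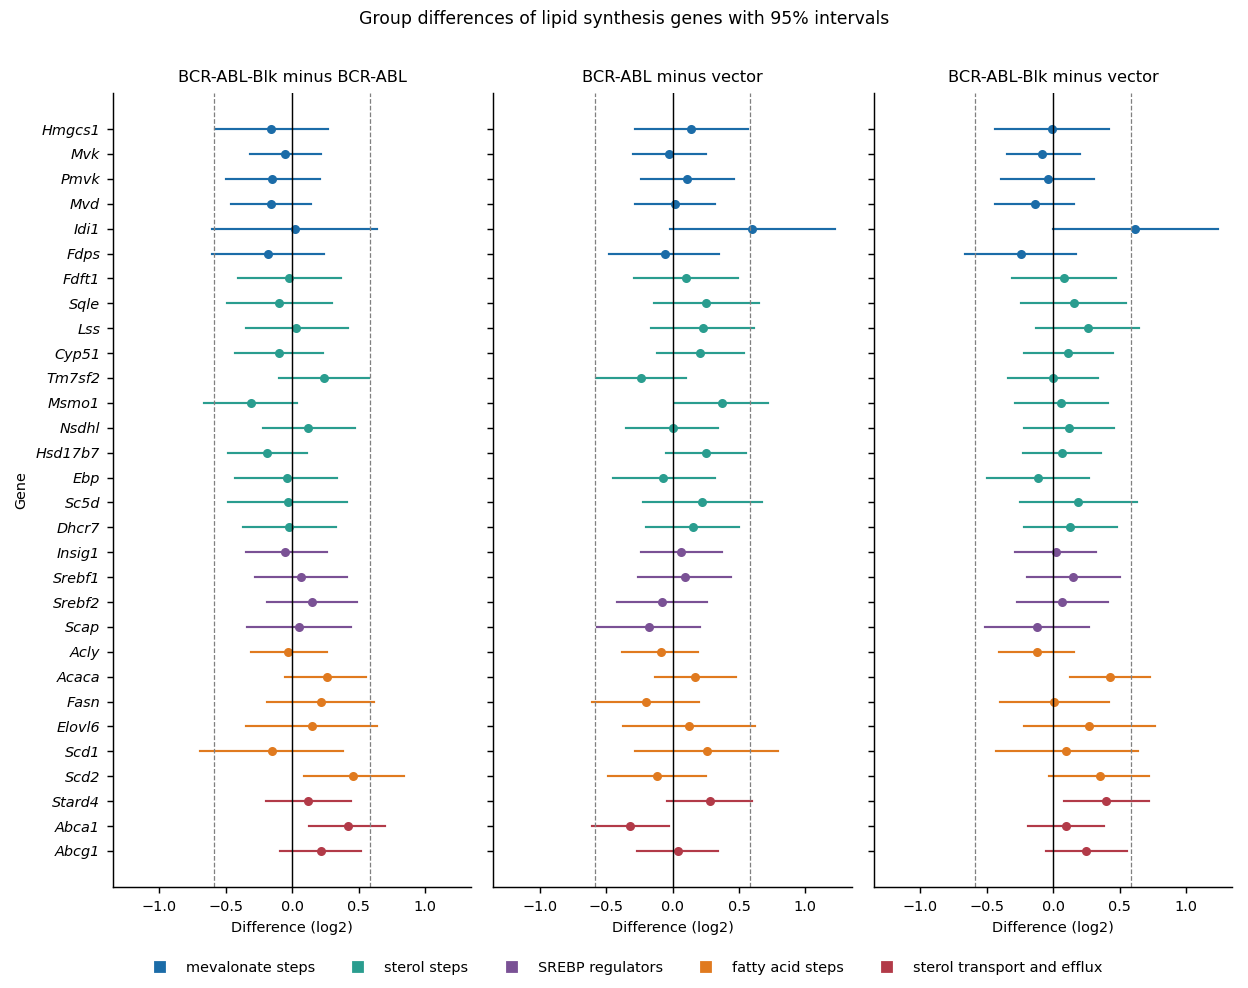
Difference between groups in log2 units (x axis) for each of 30 genes (y axis) in the 3 comparisons, with points for the difference, lines for its 95% interval from limma, dashed lines at 1.5-fold and colours for the role. Most points lie near 0, with medians of −0.02, 0.09 and 0.09 from left to right, and the interval of Idi1 reaches past 1 in both comparisons with vector.

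Groups do not overlap where each array of a group lies above or below each array of the other. Over both directions together, such members were about as common as such genes among all genes. For BCR-ABL-Blk over BCR-ABL there were 10 of 30 (33.3%, against 34.0% of all genes), with 6 higher (all genes 14.0%) and 4 lower (all genes 20.0%). For BCR-ABL over vector there were 13 (43.3%, against 37.0%), with 11 higher (all genes 22.1%) and 2 lower (all genes 14.9%). For BCR-ABL-Blk over vector there were 10 (33.3%, against 37.2%), with 8 higher (all genes 19.7%) and 2 lower (all genes 17.5%). Higher members thus made up 20.0%, 36.7% and 26.7% in the order above, each above the share of all genes. Lower members made up 13.3%, 6.67% and 6.67%, each below it. Differences above 0 were found in 14, 19 and 22 of the 30 members, that is 46.7%, 63.3% and 73.3%, against 45.6%, 54.3% and 51.2% of all genes. The comparisons share arrays, so their counts are not independent of each other.

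**Figure D2:**
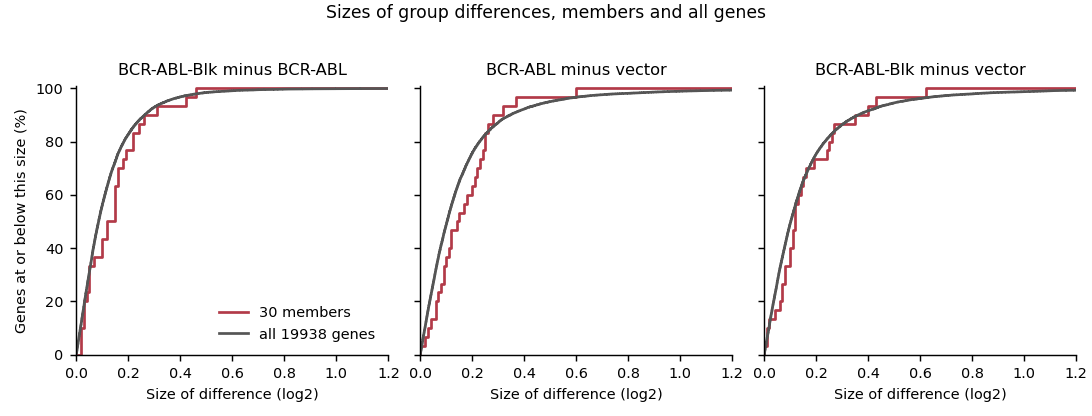
Percent of genes (y axis) whose difference between groups is no larger than the size on the x axis, in log2 units, for the 30 members and for all 19938 named genes. The members' curves lie to the right of that of all genes at small sizes (median size 0.136 against 0.0858, 0.145 against 0.103 and 0.121 against 0.102) and end at 0.46, 0.60 and 0.62, while all genes reach beyond 1. All genes are not matched to the members. Of the 30 members, 26 lie at or above the median level of all genes, and the members' median standard error is larger (0.150 against 0.129).

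Among the mevalonate steps, the 6 measured enzymes gave a median difference of −0.15 for BCR-ABL-Blk over BCR-ABL, 0.06 between BCR-ABL and vector cells and −0.06 between BCR-ABL-Blk and vector cells. Idi1, which turns isopentenyl diphosphate into its isomer, had the widest range of the 30 members. It read 9.07 and 8.72 in BCR-ABL-Blk cells, 9.01 and 8.75 in BCR-ABL cells, and 8.67 and 7.88 in vector cells. Both groups with the oncogene lay above both vector arrays, and the vector arrays lay 0.79 apart. The difference from vector was 0.62 (SE 0.267, limma adjusted p = 0.536) in BCR-ABL-Blk cells and 0.60 (SE 0.267, adjusted p = 0.592) in BCR-ABL cells, about 1.54-fold and 1.51-fold, with intervals of 0.00 to 1.24 and −0.02 to 1.22. Without vector replicate 1 the difference between BCR-ABL-Blk and vector cells was 1.01. On the values as deposited this difference was 0.77 and passed (limma adjusted p = 0.037), where 732 of all 19938 genes passed, against 28 in the main fit. Without vector replicate 2, the lower of the vector arrays, the difference was 0.23 for BCR-ABL-Blk over vector and 0.21 for BCR-ABL over vector, so that 1 vector array decides its size. A further probe set annotated to Idi1, with the same accessions, gave 0.99 for BCR-ABL-Blk over vector (interval 0.11 to 1.86) and 0.70 for BCR-ABL over vector (−0.17 to 1.58); adjusted over all 35557 probe sets these had p of 0.627 and 0.814.

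The other mevalonate enzymes differed less. Fdps, which joins the isoprenoid units into farnesyl diphosphate, read 10.05 and 10.20 in BCR-ABL-Blk cells, 10.42 and 10.19 in BCR-ABL cells, and 10.13 and 10.62 in vector cells. Its groups overlap, and BCR-ABL-Blk differed from vector by −0.24 (SE 0.178, limma adjusted p = 0.761), by −0.49 without vector replicate 1 and by 0.00 without vector replicate 2. Mvd, the decarboxylase before Idi1, read 8.07 and 8.04 in BCR-ABL-Blk, 8.27 and 8.17 in BCR-ABL, and 8.25 and 8.16 in vector cells. Both BCR-ABL-Blk arrays were the lowest of the 6, with a difference of −0.16 from BCR-ABL cells (SE 0.127, adjusted p = 0.999) that was 0.14 on the values as deposited, where the median gene differed by 0.255, and −0.12 relative to that median. Hmgcs1, the synthase that makes HMG-CoA, read 9.40 and 8.90 in BCR-ABL-Blk, 9.31 and 9.30 in BCR-ABL, and 9.20 and 9.12 in vector cells, so that the BCR-ABL-Blk arrays hold both the highest and the lowest value. Mvk, which phosphorylates mevalonate, and Pmvk, which adds a further phosphate to its product, ranged from 7.63 to 7.79 and from 8.00 to 8.30 over the 6 arrays.

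The 11 enzymes from squalene to cholesterol gave a median difference of 0.21 between BCR-ABL and vector cells, without any passing: 8 of 11 differences lay above 0 (all genes 54.3%), and 6 had both BCR-ABL arrays above both vector arrays (all genes 22.1%). The median was 0.11 between BCR-ABL-Blk and vector cells, with 10 of 11 above 0 (all genes 51.2%), and −0.03 between BCR-ABL-Blk and BCR-ABL cells, with 3 of 11 above 0 (all genes 45.6%). Msmo1, which oxidises the methyl groups of early sterols, read 8.95 and 8.69 in BCR-ABL-Blk cells, 9.06 and 9.21 in BCR-ABL cells, and 8.77 and 8.74 in vector cells. The BCR-ABL arrays were the highest pair, and the other groups overlap. BCR-ABL differed from vector by 0.37 (SE 0.150, limma adjusted p = 0.557), and BCR-ABL-Blk differed from BCR-ABL by −0.31 (SE 0.150, adjusted p = 0.999). The latter was −0.19 without BCR-ABL-Blk replicate 2 and −0.44 without BCR-ABL-Blk replicate 1.

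Hsd17b7, a sterol ketone reductase, followed the same order. It read 8.44 on both BCR-ABL-Blk arrays, 8.63 and 8.62 in BCR-ABL cells, and 8.39 and 8.36 in vector cells, and none of the groups overlap. BCR-ABL differed from vector by 0.25 (SE 0.127, limma adjusted p = 0.646) and BCR-ABL-Blk from BCR-ABL by −0.19 (SE 0.127, adjusted p = 0.999); the difference of −0.19 was 0.10 on the values as deposited, and −0.16 relative to the median of all genes there. Sqle, the squalene epoxidase at which oxygen enters the pathway, read 10.19 and 9.74 in BCR-ABL-Blk, 10.15 and 9.97 in BCR-ABL, and 9.81 on both arrays of vector cells. Replicate 1 of BCR-ABL-Blk lay above all other arrays and replicate 2 below all others. BCR-ABL differed from vector by 0.25 (SE 0.168, limma adjusted p = 0.747), or 0.16 without BCR-ABL replicate 1 and 0.34 without BCR-ABL replicate 2. Cyp51, the demethylase of lanosterol, read 9.46 and 9.32 in BCR-ABL-Blk, 9.53 and 9.45 in BCR-ABL, and 9.38 and 9.17 in vector cells, a difference of 0.21 between BCR-ABL and vector (SE 0.142, adjusted p = 0.752) that ran from 0.11 without vector replicate 2 to 0.32 without vector replicate 1.

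Lss, the cyclase that makes lanosterol, read 7.44 and 7.05 in BCR-ABL-Blk, 7.24 and 7.18 in BCR-ABL, and 7.15 and 6.82 in vector cells. BCR-ABL-Blk and vector overlap, with a difference of 0.26 (SE 0.165, limma adjusted p = 0.706) that dropped to 0.07 when BCR-ABL-Blk replicate 1 was left out and to 0.10 when vector replicate 2 was, and reached 0.45 if BCR-ABL-Blk replicate 2 was omitted. Tm7sf2, a sterol reductase, had its lowest array in BCR-ABL cells: it read 7.52 and 7.56 in BCR-ABL-Blk, 7.46 and 7.14 in BCR-ABL, and 7.44 and 7.64 in vector cells. BCR-ABL differed from vector by −0.24 (SE 0.146, adjusted p = 0.712), and BCR-ABL-Blk from BCR-ABL by 0.24 (SE 0.146, adjusted p = 0.999). Without BCR-ABL replicate 2 these were −0.08 and 0.08, and without BCR-ABL replicate 1 they were −0.40 and 0.40. The remaining sterol enzymes are Fdft1 (squalene synthase), Nsdhl, Ebp, Sc5d and Dhcr7, which carries out a last reduction to cholesterol. On the probe sets used, their differences ran from −0.11 to 0.22 over all 3 comparisons. A further probe set of Fdft1 gave 0.11 for BCR-ABL-Blk over BCR-ABL, 0.16 for BCR-ABL over vector and 0.26 for BCR-ABL-Blk over vector. The Fdft1 probe set used gave −0.02, 0.10 and 0.08. Sc5d had the widest gap among these within a group, with 8.32 and 8.80 in BCR-ABL-Blk cells.

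**Figure D3:**
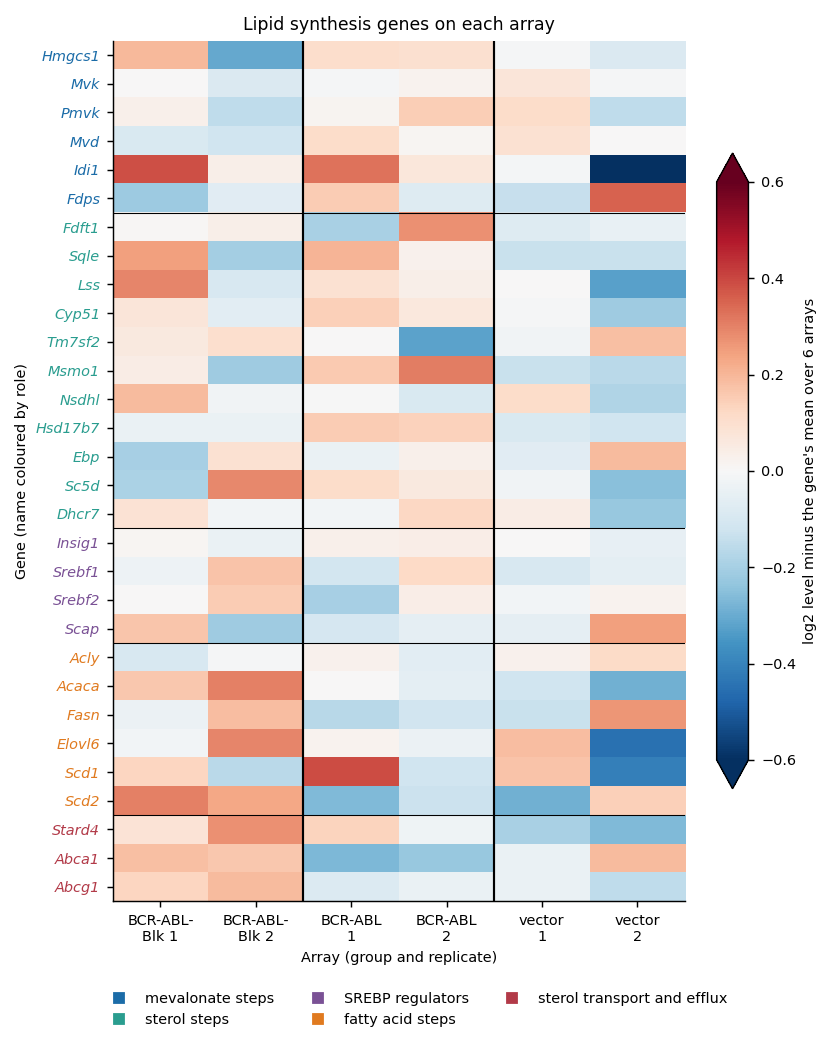
Log2 level minus the gene's mean over 6 arrays (colour) for 30 genes (rows, grouped by role) on each array (columns, with replicate numbers). Idi1, Elovl6 and Scd1 are low on vector replicate 2, Scd2 and Acaca are high on both BCR-ABL-Blk arrays, Abca1 is low on both BCR-ABL arrays, and Insig1 is nearly flat.

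The regulators had the smallest median size of difference of the 5 roles in each comparison. Insig1, itself a strong target of SREBP, ranged from 8.84 to 8.93 over the 6 arrays, the narrowest range of the 30 members, and its largest difference between groups was 0.06. The intervals of its 3 differences ran from −0.35 to 0.37 at the widest. Srebf2 read 9.40 and 9.55 in BCR-ABL-Blk, 9.20 and 9.44 in BCR-ABL, and 9.38 and 9.42 in vector cells. Srebf1 read 8.41 and 8.61 in BCR-ABL-Blk, 8.33 and 8.56 in BCR-ABL, and 8.34 and 8.38 in vector cells. Scap read 10.29 and 9.91 in BCR-ABL-Blk, 10.02 and 10.07 in BCR-ABL, and 10.07 and 10.37 in vector cells. For all 4 regulators the intervals of the 3 differences lay within 1.5-fold. Since SREBP is controlled by cleavage, RNA levels of Srebf1, Srebf2 and Scap do not measure its activity. Insig1 is a target of SREBP, and whether its RNA follows that activity in these cells was not tested.

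In fatty acid synthesis the genes with the smallest p were Scd2 and Acaca, and both read highest in BCR-ABL-Blk cells. Scd2, a desaturase that puts a double bond into saturated fatty acids, read 10.45 and 10.38 in BCR-ABL-Blk cells, 9.88 and 10.02 in BCR-ABL cells, and 9.86 and 10.29 in vector cells. Both BCR-ABL-Blk arrays lay above all others, by 0.46 against BCR-ABL (SE 0.159, interval 0.09 to 0.84, limma adjusted p = 0.999) and by 0.35 against vector (SE 0.159, adjusted p = 0.566). Leaving out vector replicate 1 gave 0.13 for the difference from vector, and leaving out replicate 2 gave 0.56. On the values as deposited, where the median of all genes itself differed by 0.255 between these groups, the difference from BCR-ABL was 0.68 (0.43 beyond that median) and passed (limma adjusted p = 0.027). In that setting 79 of all 19938 genes passed, against 0 in the main fit. Its relative Scd1 ranged from 5.47 to 6.27, with differences of −0.15 for BCR-ABL-Blk over BCR-ABL and 0.26 for BCR-ABL over vector, and gaps of up to 0.58 within a group.

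Acaca encodes acetyl-CoA carboxylase, which makes the malonyl-CoA for chain growth. It read 9.95 and 10.09 in BCR-ABL-Blk cells, 9.79 and 9.73 in BCR-ABL cells, and 9.67 and 9.50 in vector cells, and none of the groups overlap. BCR-ABL-Blk differed from vector by 0.43 (SE 0.130, interval 0.13 to 0.73, limma adjusted p = 0.335) and from BCR-ABL by 0.26 (SE 0.130, adjusted p = 0.999). On the values as deposited the difference from vector was 0.59, 0.44 beyond the median of all genes, and passed (limma adjusted p = 0.0476). In that setting 732 of all 19938 genes passed, against 28 in the main fit. A further probe set of Acaca gave 0.63 for BCR-ABL-Blk over vector (interval 0.15 to 1.11) and 0.48 for BCR-ABL-Blk over BCR-ABL (0.00 to 0.96), with p of 0.59 and 0.999 adjusted over all probe sets.

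Elovl6, which lengthens the chain made by fatty acid synthase, read 10.12 and 10.43 in BCR-ABL-Blk, 10.16 and 10.10 in BCR-ABL, and 10.32 and 9.69 in vector cells. Here the vector arrays lay 0.63 apart, and BCR-ABL-Blk differed from vector by 0.27 (SE 0.212, limma adjusted p = 0.784), a difference of −0.04 without vector replicate 2. Fasn, the synthase itself, read 9.14 and 9.36 in BCR-ABL-Blk, 9.01 and 9.06 in BCR-ABL, and 9.04 and 9.44 in vector cells, with differences of 0.22 for BCR-ABL-Blk over BCR-ABL and −0.20 for BCR-ABL over vector. Acly, which supplies acetyl-CoA from citrate, ranged from 9.73 to 9.94.

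Sterol transport held the member with the smallest p. Abca1, which moves cholesterol out of the cell to lipid-poor apolipoprotein, read 7.63 and 7.61 in BCR-ABL-Blk cells, 7.18 and 7.22 in BCR-ABL cells, and 7.41 and 7.64 in vector cells. The BCR-ABL arrays lay below all others, and BCR-ABL-Blk and vector overlap. BCR-ABL-Blk differed from BCR-ABL by 0.42, or 1.33-fold (SE 0.123, interval 0.13 to 0.70, unadjusted p = 0.0105, limma adjusted p = 0.999). BCR-ABL differed from vector by −0.32 (SE 0.123, interval −0.61 to −0.03, limma adjusted p = 0.511), or −0.21 without vector replicate 2 and −0.44 without vector replicate 1. BCR-ABL-Blk differed from vector by 0.10 (interval −0.19 to 0.38). These comparisons share the BCR-ABL arrays, so a low reading on them enters both with opposite signs.

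Abcg1, which exports cholesterol to high-density lipoprotein, read 9.34 and 9.40 in BCR-ABL-Blk, 9.13 and 9.17 in BCR-ABL, and 9.17 and 9.06 in vector cells. Both BCR-ABL-Blk arrays were the highest, with differences of 0.22 from BCR-ABL (SE 0.131, limma adjusted p = 0.999) and 0.25 from vector (SE 0.131, adjusted p = 0.623). Stard4, a carrier that shuttles cholesterol between membranes and is itself an SREBP target, read 9.72 and 9.91 in BCR-ABL-Blk, 9.77 and 9.61 in BCR-ABL, and 9.44 and 9.37 in vector cells. Both groups with the oncogene lay above vector, by 0.40 in BCR-ABL-Blk cells (SE 0.137, interval 0.08 to 0.72, adjusted p = 0.383) and by 0.28 in BCR-ABL cells (SE 0.137, adjusted p = 0.63).

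**Figure D4:**
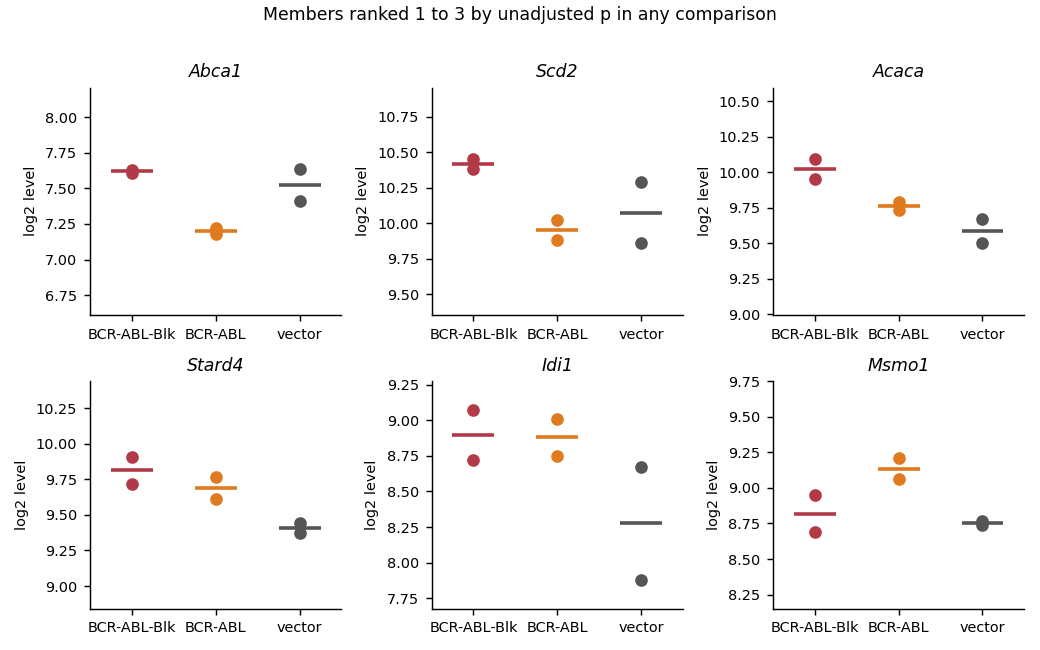
Log2 level (y axis, of the same span in every panel) on each array (points) with the group mean (line) for BCR-ABL-Blk, BCR-ABL and vector cells (x axis). Abca1 is lowest in BCR-ABL cells, at 7.18 and 7.22, Acaca and Stard4 step down over the groups from left to right, and the vector points of Idi1, at 8.67 and 7.88, lie farthest apart.

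Spread between replicates was of the same order as the differences between groups. The median member lay 0.167 apart between the BCR-ABL-Blk arrays, 0.0892 between the BCR-ABL arrays and 0.207 between the vector arrays, where all genes had 0.120, 0.118 and 0.145. In BCR-ABL-Blk cells, replicate 1 read higher than replicate 2 for Hmgcs1 (by 0.50), Sqle (0.45), Lss (0.38) and Idi1 (0.35), and for 11 of the 17 mevalonate and sterol enzymes (64.7%, against 46.4% of all genes). In BCR-ABL cells 11 of these 17 were also higher on replicate 1 (64.7%, against 56.1%). In vector cells it was 13 of them (76.5%, against 51.5%), and the largest gaps there were those of Idi1 (0.79), Elovl6 (0.63) and Scd1 (0.58). Markers of other cells differed between the same arrays. All 9 measured B cell markers were higher on vector replicate 1 (median 1.62) and all 10 neutrophil granule markers were lower on it (median −0.51). Between the BCR-ABL-Blk arrays, 7 of 8 mast cell and basophil markers were higher on replicate 1 (median 0.82). Their part in the spread of the lipid genes was not tested.

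Levels of marker lists also varied between groups, and are given as values. For BCR-ABL-Blk over BCR-ABL 0 markers of each list were called (limma), and at most 1 of a list in either comparison with vector. Among all genes, differences above 0 made up 45.6% for BCR-ABL-Blk over BCR-ABL, 54.3% for BCR-ABL over vector and 51.2% for BCR-ABL-Blk over vector. The mean level of 9 B cell markers was 7.90 and 7.50 in BCR-ABL-Blk, 7.25 and 7.65 in BCR-ABL, and 10.08 and 8.57 in vector cells. For 8 monocyte and macrophage markers it was 8.13 and 8.38 in BCR-ABL-Blk, 8.14 and 8.57 in BCR-ABL, and 9.33 and 9.59 in vector cells. Genes of the G2/M phase of the cell cycle, a proxy for dividing cells, had small median differences. Their mean over 11 genes was 10.97 and 10.83 in BCR-ABL-Blk, 10.91 and 10.74 in BCR-ABL, and 11.01 and 10.89 in vector cells. Of these 11, 8 lay above 0 for BCR-ABL-Blk over BCR-ABL (median 0.06) and 4 for BCR-ABL-Blk over vector (−0.09). Only 1 of the 11 lay above 0 for BCR-ABL over vector (−0.11). For BCR-ABL-Blk over BCR-ABL, 0 of 10 neutrophil granule markers (median −0.39), 0 of 8 mast cell and basophil markers (−0.44) and 0 of 6 erythroid markers (−0.37) lay above 0. For BCR-ABL-Blk over vector and BCR-ABL over vector, all 7 megakaryocyte markers lay above 0 (median 0.62 and 0.55), and markers of stem and progenitor cells had medians of 0.54 and 0.46, with 8 of 10 above 0 in each. Whether these markers bear on the lipid genes was not tested.

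Of 75 further gene symbols in lists of the wider pathway, some of them old and new symbols of the same gene, 63 were measured, and 0 passed in any comparison (limma). At an unadjusted p under 0.05 there were 0 between BCR-ABL-Blk and BCR-ABL cells (all genes 3.96%), 5 between BCR-ABL and vector cells (4 higher, 1 lower; 7.94%, against 8.64% of all genes) and 4 between BCR-ABL-Blk and vector cells (2 higher, 2 lower; 6.35%, against 9.42%). The median of the 63 was −0.02, −0.02 and 0.01 in these comparisons, with 27, 30 and 33 above 0. Elovl7, an elongase of long fatty acids, read 8.68 and 8.70 in BCR-ABL-Blk, 9.11 and 8.61 in BCR-ABL, and 7.64 and 8.19 in vector cells. It lay above vector on all 4 oncogene arrays, by 0.78 in BCR-ABL-Blk cells (SE 0.231, adjusted p = 0.327) and 0.95 in BCR-ABL cells (SE 0.231, adjusted p = 0.233).

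Cyp27a1, which makes a hydroxylated sterol that can activate LXR, read 7.40 and 7.42 in BCR-ABL-Blk, 7.33 and 7.36 in BCR-ABL, and 7.95 and 7.74 in vector cells. It was lowest with the oncogene, with a difference from vector of −0.44 in BCR-ABL-Blk cells (SE 0.122, limma adjusted p = 0.289) and of −0.50 in BCR-ABL cells (SE 0.122, adjusted p = 0.235). Me1, the malic enzyme that yields NADPH for fatty acid synthesis, differed from vector by 0.65 in BCR-ABL-Blk cells (adjusted p = 0.419) and by 0.77 in BCR-ABL cells (adjusted p = 0.358). Fads1, a desaturase of polyunsaturated fatty acids, differed by 0.50 between BCR-ABL and vector (adjusted p = 0.493) and by −0.40 for BCR-ABL-Blk over BCR-ABL (adjusted p = 0.999). Among the other genes nearest to the threshold, Elovl1, an elongase of very long chains, differed by −0.32 between BCR-ABL-Blk and vector (adjusted p = 0.496). Elovl5 (−0.32), Ufd1 (−0.23), which helps to draw proteins from the membrane for degradation, and Thrsp (−0.20) were the nearest between BCR-ABL-Blk and BCR-ABL, each at an adjusted p of 0.999.

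Over all genes, 29 passed between BCR-ABL and vector cells (24 higher, 5 lower; 176 and 225 on the values as deposited), 28 between BCR-ABL-Blk and vector cells (19 higher, 9 lower) and 0 between BCR-ABL-Blk and BCR-ABL cells, where 790 had an unadjusted p under 0.05. Without vector replicate 1 these were 507, 560 and 0, and leaving out any other single array gave 1 to 214, 4 to 227 and 0 to 2. Kit, a gene of the sort gate, read from 10.33 to 10.92 over the 6 arrays; Ly6a, the gene of Sca-1, was not analysed here. Blk itself read 6.95 and 7.01 in BCR-ABL-Blk, 6.54 and 6.60 in BCR-ABL, and 7.15 and 6.95 in vector cells, a difference of 0.41 between BCR-ABL-Blk and BCR-ABL (SE 0.109, adjusted p = 0.999) and of −0.07 between BCR-ABL-Blk and vector (SE 0.109, adjusted p = 0.914). Blk thus read no higher in the cells labelled as carrying it than in vector cells; whether this probe set reads the retroviral transcript was not tested, and it is a weak check of the labels.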

How the data were processed

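Total RNA of sorted cells was labelled and hybridised to whole-transcript arrays, 1 per sample. The authors deposited log2 values, rounded to 2 decimals, of 35557 probe sets, made with Affymetrix Expression Console 1.1 and RMA per the submitters' processing notes; its options and the genome build: not given in the sources used here. Array medians of these deposited log2 values ran from 7.01 to 7.52, so the arrays were quantile normalized before testing. Sample titles gave the groups and replicate numbers. In the platform annotation, which can be old, 21789 probe sets had 1 symbol, 1621 several and 12147 none; all 30 measured members matched RefSeq by Entrez ID. Genes were not filtered on level. Signal over background is unknown, and differences of dim genes may be understated. The number of arrays limits the precision.

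Differences were fitted with limma 3.58.1 in R 4.3.3 (lmFit, eBayes with an intensity trend) over 6 arrays and 3 groups, without a replicate term, leaving 3 residual degrees of freedom plus 4.40 from the prior. Two-sided p-values were adjusted by Benjamini-Hochberg over 19938 genes and called under 0.05. Tested on simulated arrays of BCR-ABL against vector (25 runs, 19938 genes, 200 of them changed), the fit found 23.1% of 1.5-fold changes, 66.3% of 2-fold, 93.4% of 4-fold and 97.8% of 8-fold changes, with 4.99% false calls. The simulated noise was drawn for each gene on its own, without shifts that many genes of an array share. These rates may therefore not hold for the real arrays. Given in full are, per comparison, the 8 members with the smallest unadjusted p, any member called, and 4 genes of the wider lists. The members, lists, normalization and tests were chosen with earlier results of these data known, so no list was tested. Alternatives were other scalings, filters, probe set rules, variance priors, array weights, a 4-array fit, a replicate block and leaving out each array. Figures were made in matplotlib 3.10.9 (Python 3.11.15), with tables in pandas 2.3.3.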

Additional observations from a re-analysis of the deposited data

How the results depend on the processing

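Of the alternatives other than leaving out an array, only the values as deposited called a member. There it was 1 for BCR-ABL-Blk over BCR-ABL (Scd2) and 2 for BCR-ABL-Blk over vector (Acaca, and Idi1 at 0.77, limma adjusted p = 0.037). That setting also called 79 and 732 of all 19938 genes in these comparisons, against 0 and 28 in the main fit. The member median was then 0.26, −0.02 and 0.25 for BCR-ABL-Blk over BCR-ABL, BCR-ABL over vector and BCR-ABL-Blk over vector, where the median of all genes was 0.255, −0.11 and 0.15. When each array was left out in turn, the member median of BCR-ABL over vector ran from 0.05 to 0.12. Differences that turned sign were those of Hsd17b7 (0.10) and Mvd (0.14) for BCR-ABL-Blk over BCR-ABL on the values as deposited, and that of Elovl6 for BCR-ABL-Blk over vector, which ran from −0.04 to 0.59 when arrays were left out. Of 24 named differences, 12 moved by over 1.5 times when 1 array was left out, and 22 kept their sign with every array left out in turn; the exceptions were Elovl6 and that of Fdps for BCR-ABL-Blk over vector, which was 0.00 without vector replicate 2. The cause was not tested.

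Counts over all genes moved more. For BCR-ABL over vector, 29 genes became 401 on the values as deposited, 53 among genes at or above the median level, 1 over all probe sets and 15 without an intensity trend. For BCR-ABL-Blk over vector, 28 became 732, 71, 1 and 4 in the same settings, 14 with array weights and 4 with only the 4 arrays compared; for BCR-ABL-Blk over BCR-ABL, 0 became 79 on the values as deposited. Over all genes, the deviations of same-numbered replicates had correlations of 0.0334, −0.0618 and 0.0841. With 2 arrays a group, these cannot show whether the replicate numbers pair the samples. With a replicate block, 0 members were called and 0, 29 and 23 genes.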
